A study of Mus musculus with 4 samples.

Results

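Transcripts of 10 transcription factor genes were followed in endothelial cells of the mouse heart, the gene list being Gata4, Gata5, Gata6, Hand2 and Nfatc1 (the cardiac factors), Meox2 and Tcf15 (the capillary factors), and Meox1, Foxo1 and Tal1. They were taken by name from the 27998 genes of the count tables. The cells were sorted as CD31+/CD45− from hearts of C57Bl6J mice and measured by droplet single-cell RNA sequencing on embryonic days E12 and E15, on postnatal day P2 and at 8 weeks (adult). Each stage had 1 library, from a pool of 37 animals (E12), 48 (E15), 21 (P2) or 6 (adult). No treatment or altered allele is named for any group, and all cells were frozen after sorting for CD31, an endothelial surface protein, and against CD45, a leukocyte one. Enzymatic digestion differed between the stages. Dead cells were removed with a kit at E12 and E15, whereas P2 and adult cells were sorted again for live cells. Stage, library and handling therefore cannot be told apart.

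GATA factors are zinc finger proteins that bind the same short DNA motif, and Gata4, Gata5 and Gata6 act in the myocardium, the endocardium and the cushions that form the valves. Hand2 is a basic helix-loop-helix factor of the cardiac mesoderm, and Nfatc1 is a calcium-dependent factor known for its role in the endocardium of the forming valves. Meox2 and Meox1 are homeobox proteins of mesoderm, and Meox2 acts together with Tcf15, a basic helix-loop-helix factor, in fatty acid uptake by the capillaries of heart and muscle. Foxo1 restrains endothelial growth, and Tal1 is required for blood formation and is also present in endothelium.

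Promoter sequences are shown for 1 factor of each kind, Hand2 for the cardiac factors, Meox2 for the capillary factors and Tal1 for the factors less than 2-fold apart between the cell classes. RefSeq windows on GRCm38.p6 were matched for 5 of the 10 members, Gata5, Hand2, Meox2, Foxo1 and Tal1, the last with 2 start sites. Each line gives the 250 bases before the start, on the plus strand, 5′ to 3′. Capitals mark matches on either strand to a GATA motif (AGATAA or AGATAG or TGATAA or TGATAG), the homeobox motif TAATTA, the FOXO motif GTAAACA or the NFAT motif TGGAAA.
Hand2, chr8:57320733-57320982: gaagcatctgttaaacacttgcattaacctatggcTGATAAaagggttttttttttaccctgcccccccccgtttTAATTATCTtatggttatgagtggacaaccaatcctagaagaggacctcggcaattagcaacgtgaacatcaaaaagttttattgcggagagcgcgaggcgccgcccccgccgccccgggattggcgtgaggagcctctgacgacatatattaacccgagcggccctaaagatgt
Meox2, chr12:37108290-37108539: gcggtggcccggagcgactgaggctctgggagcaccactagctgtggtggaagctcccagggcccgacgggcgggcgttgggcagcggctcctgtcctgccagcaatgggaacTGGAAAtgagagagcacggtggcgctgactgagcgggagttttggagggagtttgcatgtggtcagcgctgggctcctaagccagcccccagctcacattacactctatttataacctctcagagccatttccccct
Tal1, chr4:115056176-115056425: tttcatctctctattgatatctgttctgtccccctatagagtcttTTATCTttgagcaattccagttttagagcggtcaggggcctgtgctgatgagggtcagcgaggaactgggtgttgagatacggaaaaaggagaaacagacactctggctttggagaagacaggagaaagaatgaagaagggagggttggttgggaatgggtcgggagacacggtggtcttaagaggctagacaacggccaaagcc

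The Hand2 window held 2 GATA matches, starting 215 and 172 bases before the start, and 1 homeobox match at 175, whose last letters are shared with the second GATA match. The Meox2 window held 1 NFAT match, 137 bases before the start. The Tal1 window held 1 GATA match at 205, and the window of its second start site held none of the 4 motifs. The Gata5 window, the other one matched for a cardiac factor and not shown, also held none of them. The Foxo1 window, not shown either, held 1 NFAT match at 160. Among all 32851 windows of 250 bases, 26.5% held a GATA match, 4.84% the homeobox motif, 3.17% the FOXO motif and 18.6% the NFAT motif. The E-box CANNTG, the motif that Hand2, Tcf15 and Tal1 bind as a family, occurred in 66.2% of all windows, 2 times in the Hand2 window, 1 time in that of Meox2 and not in that of Tal1. A match describes these letters and shows no binding.

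Cells were divided within each library by marker genes that are not members. Non-endothelial cells lacked Pecam1, Cdh5 and Egfl7. Of the others, valve cells had 2 or more UMIs (unique molecular identifiers, 1 per captured transcript) of Cldn11, Enpp2 and Aqp8, endocardial cells had more UMIs of Npr3 and Tmem108 than of Fabp4, Cldn5 and Aplnr, and coronary cells had 2 or more UMIs of the latter and more than of the former. The 4 libraries held 21920 cells, and the median cell held 1241, 1013, 4531.5 and 1510 UMIs in order of age, the order used for all runs of 4 values. Endocardial cells numbered 1117, 1561, 937 and 69 in this order. Coronary cells numbered 106, 1060, 4350 and 3962, valve cells 12, 49, 427 and 21, and non-endothelial cells 2995, 1867, 13 and 133. Levels are UMIs summed over the cells of a class, per 1000000 UMIs of that class (CPM). Brackets give 95% intervals for counting error, which leave out differences between animals. A level summed over cells does not separate fewer cells with a transcript from fewer transcripts per cell. With 1 library per stage and no replicate, no test was made, and a ratio of 2 or more in either direction is called 2-fold.

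The class labels were checked on other markers. The 6 endocardial check genes, such as Plvap and Igfbp5, summed to 1318, 2139, 3502 and 5426 CPM in endocardial cells. Their sums in coronary cells were 293, 319, 726 and 261 CPM, with 2 of the 6 at 0 in coronary cells of E12. Of these 6 genes, 5 were 2-fold higher in endocardial cells of E12, but 1 was 2-fold higher in coronary cells. All 6 were 2-fold higher in endocardial cells of each later library. The 6 coronary check genes, such as Cd36 and Gpihbp1, summed to 18.5, 93.8, 324 and 552 CPM in endocardial cells. In coronary cells they summed to 159, 1775, 5329 and 12990 CPM. At E12 only 1 of the 6 reached 20 UMIs over both classes, and that gene was 2-fold higher in coronary cells. The 4 valve check genes summed to 393, 689, 1207 and 835 CPM in valve cells, with 3 of the 4 at 0 at E12, and to 211, 321, 571 and 612 CPM in endocardial cells. Non-endothelial cells had 438, 689, 2225 and 307 CPM of them, so that these genes did not set valve cells apart from non-endothelial ones before the adult. The non-endothelial label was at odds with the data in part, since 650 of these cells at E12 and 923 at E15 lacked mesenchymal and erythroid marker UMIs at the limits used but carried UMIs of Kdr, Tie1, Esam, Ramp2, Eng or Emcn. The other classes also included cells with 2 or more UMIs of lymphatic markers (Prox1, Lyve1, Pdpn, Mmrn1, Ccl21a), 250 of 4350 coronary, 141 of 937 endocardial and 126 of 427 valve cells at P2, and 12 of 106 coronary cells at E12. Of cell barcodes, 249 occurred in more than 1 library.

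As sums, the cardiac factors were higher in endocardial than in coronary cells of each library, and the capillary factors were lower. Over Gata4, Gata5, Gata6, Hand2 and Nfatc1, endocardial cells had 442, 419, 418 and 254.5 CPM. Coronary cells had 99.1, 112, 115 and 43.4 CPM. The endocardial sum was thus higher by 4.46-fold [2.95 to 7.09], 3.74-fold [3.16 to 4.45], 3.64-fold [3.42 to 3.86] and 5.87-fold [4.22 to 8.00]. The E12 value rested on 23 UMIs in coronary cells, and it was 1.55 [0.78 to 3.60] when other marker genes defined the classes, which left 14 coronary cells. With stricter class markers it was 5.70 at P2 [5.01 to 6.46] and 12.7 in the adult [7.15 to 21.1]. The 8 mesenchymal markers were also higher in endocardial cells as a sum, with 765, 775, 1276 and 2989 CPM against 289, 355, 245 and 456 CPM. Of them, 6 of 8, 7 of 8, 6 of 8 and 3 of 7 were 2-fold higher in endocardial cells and 0, 0, 1 and 3 in coronary cells, 4 were at 0 in adult endocardial cells, and their part in the cardiac factor ratios was not tested.

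Summed over Meox2 and Tcf15, the order was the opposite. Endocardial cells had 14.8, 53.6, 139.8 and 5.42 CPM, against 120.6, 312, 528 and 590.1 CPM in coronary cells. Up to P2 the coronary sum was higher by 8.15-fold [4.55 to 14.7], 5.82-fold [4.68 to 7.30] and 3.78-fold [3.48 to 4.10]. In the adult it was 109-fold higher [19.5 to 4305], a value that rested on 1 UMI in 69 endocardial cells. With other class markers the endocardial sum was at 0.24 of the coronary one at E12 [0.086 to 0.91] and at 0.065 in the adult [0.041 to 0.098]. Of all UMIs of these 7 factors, the cardiac factors made up 96.8%, 88.7%, 74.9% and 97.9% of those in endocardial cells, and 45.1%, 26.4%, 17.9% and 6.85% of those in coronary cells.

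**Figure D1:**
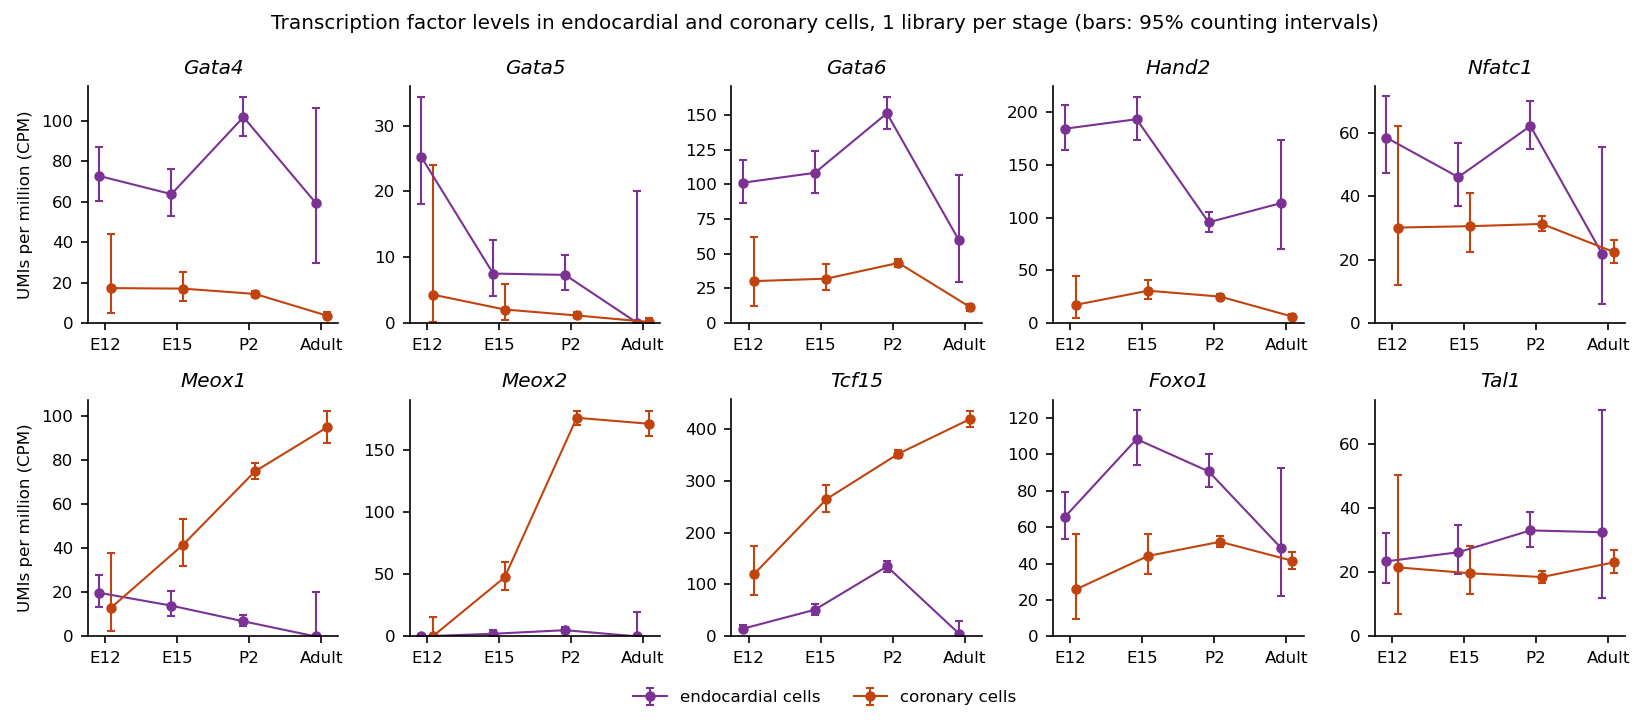
Level of each factor (CPM, linear axis from 0) in endocardial cells (purple) and coronary cells (red-brown) of the 4 libraries, with bars for 95% counting intervals. Gata4, Gata6 and Hand2 lie higher in endocardial cells at each stage, while coronary Meox2 goes from 0 at E12 to 176 CPM at P2.

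Among the members with 20 or more UMIs over both classes, 5 of 9 were 2-fold higher in endocardial cells at E12 (Gata4, Gata5, Gata6, Hand2 and Foxo1), where 18.8% of all genes with as many UMIs were, and 1 of 9, Tcf15, was 2-fold higher in coronary cells, where 5.02% of genes were. At E15 the counts were 4 of 9 in endocardial cells (Gata4, Gata6, Hand2 and Foxo1), against 11.6% of genes, and 3 of 9 in coronary cells (Meox1, Meox2 and Tcf15), against 5.96%. At P2 they were 4 of 10 (Gata4, Gata5, Gata6 and Hand2), against 11.5% of genes, and 3 of 10 in coronary cells, against 11.4%. In the adult they were 3 of 9 (Gata4, Gata6 and Hand2), against 14.2%, and 3 of 9 in coronary cells, against 23.3%. The 3 coronary genes were Meox1, Meox2 and Tcf15 in these 3 libraries. The members were named with such results known, so these counts describe the list.

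Gata4 had 72.8 [60.2 to 87.1], 63.8 [52.8 to 76.3], 101.9 [92.7 to 112] and 59.6 CPM [29.7 to 107] in endocardial cells. In coronary cells it had 17.2 [4.69 to 44.1], 17.0 [10.99 to 25.1], 14.4 [12.8 to 16.02] and 3.59 CPM [2.32 to 5.30]. The intervals of the classes did not overlap in any library, with ratios of 4.22, 3.75, 7.10 and 16.6. Within endocardial cells the P2 level exceeded that at E12 by 1.40-fold [1.14 to 1.73], and the other neighbours in the order of levels were not separated by counting error.

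Gata6 had 101, 108, 151 and 59.6 CPM in endocardial cells, and 30.2, 31.9, 43.3 and 11.2 CPM in coronary cells. The intervals of these levels did not overlap at any stage, and the endocardial-to-coronary ratio lay between 3.35 [1.59 to 8.47] at E12 and 5.32 [2.55 to 10.0] in the adult. With other class markers, which left 4 coronary UMIs of Gata6 at E12, the E12 ratio was 0.74 [0.28 to 2.75]. The endocardial level of Gata5 was 25.3, 7.50 and 7.30 CPM up to P2, with 0 UMIs in the 69 adult cells, which allows up to 16.2 CPM. Coronary Gata5 had 1, 3, 25 and 1 UMIs, and the ratio was 5.87 at E12 [0.996 to 237] and 6.45 at P2 [3.70 to 11.3].

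Hand2 had 184 [164 to 206], 193 [174 to 214], 95.6 [86.6 to 105] and 114 CPM [70.4 to 174] in endocardial cells. Coronary cells had 17.2, 30.6, 24.99 and 6.03 CPM, with ratios of 10.7 [4.14 to 39.5], 6.33 [4.63 to 8.83], 3.82 [3.36 to 4.35] and 18.8 [10.6 to 32.6]. The 2 embryonic libraries lay above the P2 library in endocardial cells, with intervals that did not overlap.

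With all cells kept, Nfatc1 was less than 2-fold apart between the classes in each library. It had 58.6, 46.1, 62.3 and 21.7 CPM in endocardial and 30.2, 30.6, 31.3 and 22.4 CPM in coronary cells. Its ratios were 1.94 [0.91 to 4.96], 1.51 [1.04 to 2.21], 1.99 [1.72 to 2.29] and, from 4 UMIs in adult endocardial cells, 0.97 [0.26 to 2.52]. Lymphatic marker cells within the coronary class had 80.7 CPM of Nfatc1 at P2, from 132 of the 691 coronary UMIs. Without lymphatic marker cells, endocardial cells of P2 had 63.6 CPM of Nfatc1. Coronary cells then had 31.3 CPM with 2 or more artery marker UMIs and 26.6 CPM with none, both lower by more than 2-fold.

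**Figure D2:**
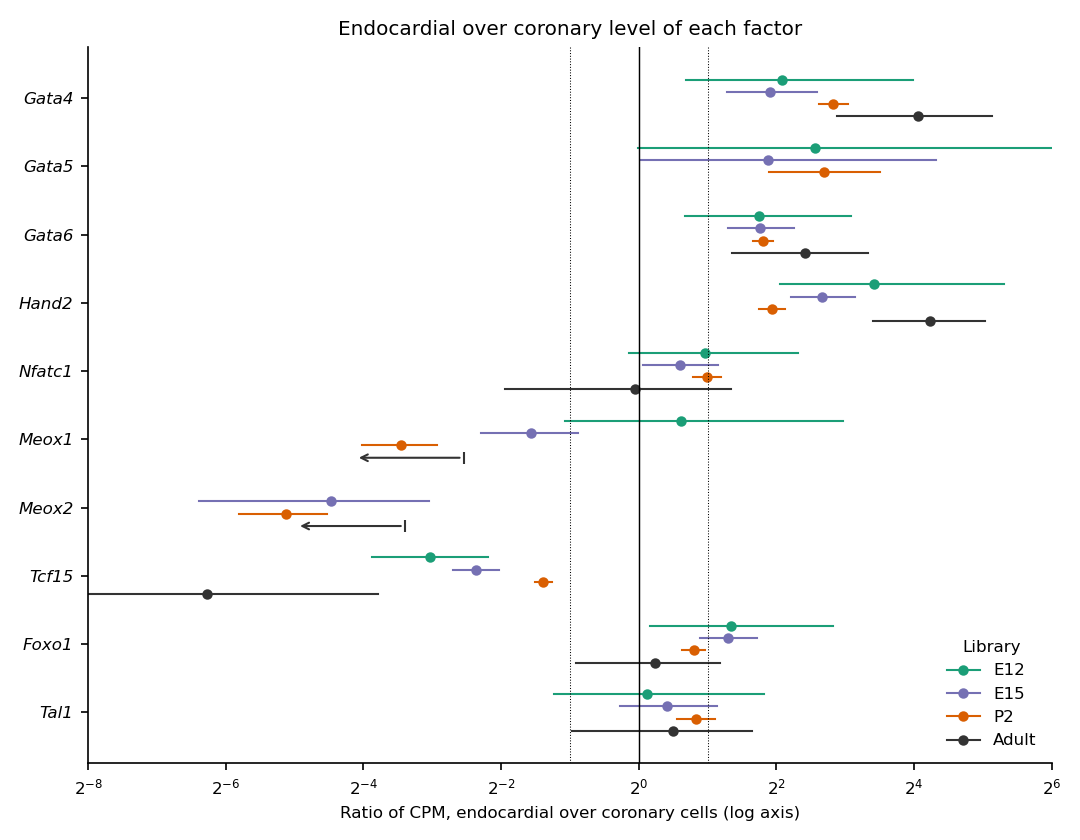
Ratio of the endocardial to the coronary level of each factor in the 4 libraries, on a log axis with 95% counting intervals cut at the edges of the plot, dotted lines at 2-fold and arrows where endocardial cells had 0 UMIs. Gata4, Gata6 and Hand2 lie to the right of 1 in each library, Tcf15 lies to the left, and Tal1 lies between 1 and 2-fold.

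Meox2 was not found in the 5732 cells of the E12 library. The 106 coronary cells of that library had 0 UMIs, which allows up to 12.9 CPM, and all 737280 barcodes held 2 UMIs of it, both in droplets with 100 or fewer UMIs. Coronary cells had 70 UMIs or 47.6 CPM [37.1 to 60.1] at E15, 3885 UMIs or 175.9 CPM [170 to 181] at P2, and 1191 UMIs or 171 CPM [162 to 181] in the oldest library. The E15 level was at least 3.68-fold above the limit of 3 counts at E12, with 2.92 as the lower end of the exact interval, and the P2 level was 3.70-fold above E15 [2.92 to 4.75]. P2 and the adult were not separated, with a ratio of 0.97 [0.91 to 1.04]. In endocardial cells Meox2 had 4 UMIs at E15 (2.14 CPM), 22 at P2 (5.02 CPM) and none at E12 and in the adult. The coronary level was 22.2-fold [8.29 to 83.7] and 35.1-fold higher [23.1 to 56.0] in the E15 and P2 libraries, and at least 10.5-fold higher in the adult one, where the exact interval began at 8.55.

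The share of coronary cells with a Meox2 UMI was 45.9% at P2 (median 4511.5 UMIs per cell) and 23.4% in the adult (median 1491). With every cell thinned to 500 UMIs the shares were 7.79% and 7.45%. The thinned share in endocardial cells of P2 was 0.43%, at a median depth of 4483 UMIs before thinning. At E15, where the coronary level was 47.6 CPM, the thinned coronary share was 2.07%.

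Tcf15 was already present at E12. Coronary cells had 120.6 [80.1 to 174], 264 [239 to 292], 352 [344 to 360] and 419 CPM [404 to 434], and each step exceeded counting error. Endocardial cells had 14.8 CPM [9.48 to 22.0], 51.4 [41.7 to 62.8], 135 [124 to 146] and 5.42 [0.14 to 30.2]. The endocardial level therefore also went up to P2, by 9.11-fold from E12 [6.06 to 14.3], and the coronary-to-endocardial ratios were 8.15 [4.55 to 14.7], 5.14 [4.10 to 6.49], 2.61 [2.40 to 2.84] and 77.4 [13.9 to 3057]. The adult ratio rested on 1 endocardial UMI. At E12 droplets with 100 or fewer UMIs held 39.7 CPM of Tcf15 against 18.96 CPM in the cells, and the part of free RNA in the endocardial values was not tested.

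Meox1 was higher in coronary than in endocardial cells from E15 on. Coronary cells had 12.9 (3 UMIs), 41.4 [31.7 to 53.2], 74.8 [71.2 to 78.4] and 94.7 CPM [87.6 to 102]. Endocardial cells had 19.7, 13.9 and 6.84 CPM at E12, E15 and P2, and 0 UMIs in the adult. The coronary level was higher by 2.97-fold at E15 [1.85 to 4.91], by 10.9-fold at P2 [7.62 to 16.2] and by at least 5.83-fold in adult cells with 3 counts as the endocardial limit, where the lower end of the exact interval was 4.73. At E12 the endocardial-to-coronary ratio was 1.53 [0.48 to 7.79], and 0.19 [0.057 to 0.97] with other class markers. Among the named classes, non-endothelial cells had the highest Meox1 level in each library. It was 123 CPM at E12 [113 to 134], and the 2000 of these cells with 2 or more mesenchymal UMIs had 155 CPM. Later it was 52.8 CPM at E15, 89.6 CPM at P2 and 159.5 CPM in the adult. The interval of its ratio to the coronary level included 1 at E15 and P2. Adult valve cells had 125.8 CPM.

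Foxo1 was 2-fold higher in endocardial cells of the embryonic libraries, with 65.4 against 25.8 CPM at E12 and 108 against 44.2 CPM at E15. The E12 coronary level rested on few UMIs. Of these, 5 lay in the 29 cells with 2 or more dividing marker UMIs, and 0 in the 53 cells with none. At P2 it had 90.5 against 51.9 CPM, a ratio of 1.74 [1.55 to 1.96], and in the adult 48.7 against 41.5 CPM, a ratio of 1.17 [0.53 to 2.26]. Tal1 was less than 2-fold apart between the classes, from 23.4 to 33.1 CPM in endocardial and from 18.5 to 23.1 CPM in coronary cells. Its interval excluded 1 at P2, with a ratio of 1.79 [1.47 to 2.16], and included 1 in the other libraries.

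Consecutive stages were compared within each class, with the limit that stage and handling cannot be told apart. In coronary cells from E12 to E15, 3 of 9 members were 2-fold higher at E15 (Meox1, Meox2 and Tcf15), against 12.6% of genes, and none was 2-fold lower, against 5.06%. The Meox1 value, from 3 UMIs at E12, was 3.21 [1.05 to 15.98] and turned to 0.57 [0.18 to 2.85] with other class markers. From E15 to P2, 1 of 10, Meox2, was 2-fold higher at P2, against 18.8% of genes, and none was lower, against 5.68%. Marker lists of coronary cells moved over both steps. From E12 to E15, 5 of 5 coronary check and 4 of 4 erythroid genes were 2-fold higher. From E15 to P2, 5 of 6 coronary check and 3 of 5 lymphatic genes were 2-fold higher, and 4 of 4 erythroid genes were lower. Their part in the member changes was not tested. From P2 to the adult, 4 of 10 were 2-fold lower (Gata4, Gata5, Gata6 and Hand2), against 13.2% of genes, and none was higher, against 11.3%. Adult coronary cells had 0.25 of the P2 level of Gata4 [0.16 to 0.38], 0.26 of Gata6 [0.20 to 0.33] and 0.24 of Hand2 [0.17 to 0.33], and 0.72 of Nfatc1 [0.60 to 0.85]. Over the same step Meox2 had 0.97 and Tcf15 1.19 of its P2 level [1.14 to 1.24]. Marker lists of coronary cells also moved over this step, the endocardial check genes from 726 to 261 CPM, lymphatic markers from 885 to 86.5 CPM, dividing markers from 592 to 62.5 CPM, immune markers from 0.82 to 137 CPM and erythroid markers from 26.7 to 392 CPM. Without lymphatic marker cells the adult levels were 0.24 of P2 for Gata4, 0.25 for Gata6 and 0.23 for Hand2, and the part of the other lists was not tested.

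In endocardial cells from E12 to E15, 1 of 9 members was 2-fold higher (Tcf15, 3.48-fold [2.204 to 5.69]), against 3.88% of genes, and 1 of 9 was lower (Gata5, at 0.30 of its E12 level [0.15 to 0.56]), against 3.54%. From E15 to P2, 2 of 10 were 2-fold higher (Meox2 and Tcf15), against 13.4%, and 2 of 10 were lower (Hand2, at 0.49 [0.43 to 0.57], and Meox1, at 0.49 [0.28 to 0.86]), against 5.17%. With other class markers Meox1 was higher at P2 than at E15, by 1.85-fold [1.11 to 3.29]. The Meox2 interval of this step, 2.34-fold [0.80 to 9.34], included 1. Coronary check genes also moved in endocardial cells, with 3 of 3 2-fold higher from E12 to E15 and 4 of 5 from E15 to P2. Their part in the member changes was not tested. From P2 to the adult, 6 of 10 were 2-fold lower, against 20.1% of genes, and none was higher, against 11.1%. Of these 6, Gata6 had 0.39 of its P2 level [0.20 to 0.71], Nfatc1 0.35 [0.09 to 0.90] and Tcf15 0.04 [0.0010 to 0.22]. Gata5, Meox1 and Meox2 had 0 UMIs in the adult cells, whose limit of 16.2 CPM was above their P2 levels, so that no change was detectable at this depth.

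Valve cells also carried the cardiac factors, and the interval of the summed ratio to endocardial cells was above 1 at E12 and, with all cells kept, at E15. The summed valve level was 864 [541 to 1307], 574 [426 to 757], 389 [365 to 414] and 354.5 CPM [241 to 503], which is 1.95 [1.22 to 2.98], 1.37 [1.01 to 1.82], 0.93 [0.86 to 1.01] and 1.39 times [0.86 to 2.24] the endocardial sum. Without cells that carried 2 or more lymphatic UMIs, which left 301 valve cells at P2, the ratio was 1.37 at E15 [0.99 to 1.84], an interval that includes 1, and 0.89 at P2 [0.81 to 0.97], one that lies below 1. Nfatc1 was 3.35-fold higher in valve than in endocardial cells at E12 [1.06 to 8.10], from 5 UMIs in 12 cells, and 1.46-fold at P2 [1.22 to 1.75], from 227 UMIs. The P2 value of Nfatc1 without the lymphatic marker cells was 1.22 [0.98 to 1.52]. Meox2 in valve cells of P2 had 28.1 CPM, between the endocardial and the coronary level, and Tcf15 had 81.7 CPM, below both.

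Cells of the non-endothelial class in the embryonic libraries held the GATA factors as well. Part of this class carried UMIs of other endothelial markers, as given above. It had 465 CPM of the endocardial check genes at E12 and 1016 CPM at E15, against 1318 and 2139 CPM in endocardial cells. The part of such cells in the levels below was not tested. Gata6 had 177 CPM at E12, 1.75-fold the endocardial level [1.48 to 2.09], and 126 CPM at E15. Gata4 had 84.7 and 60.1 CPM, which did not differ from the endocardial levels beyond counting error. Hand2, at 125 and 114 CPM, lay below the endocardial level, with ratios of 0.68 [0.59 to 0.78] and 0.59 [0.50 to 0.70]. Among the 2000 cells with mesenchymal marker UMIs at E12, Gata6 reached 205 CPM, Hand2 119, Gata4 92.0 and Nfatc1 23.6 CPM, and Tcf15 had 6 UMIs.

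**Figure D3:**
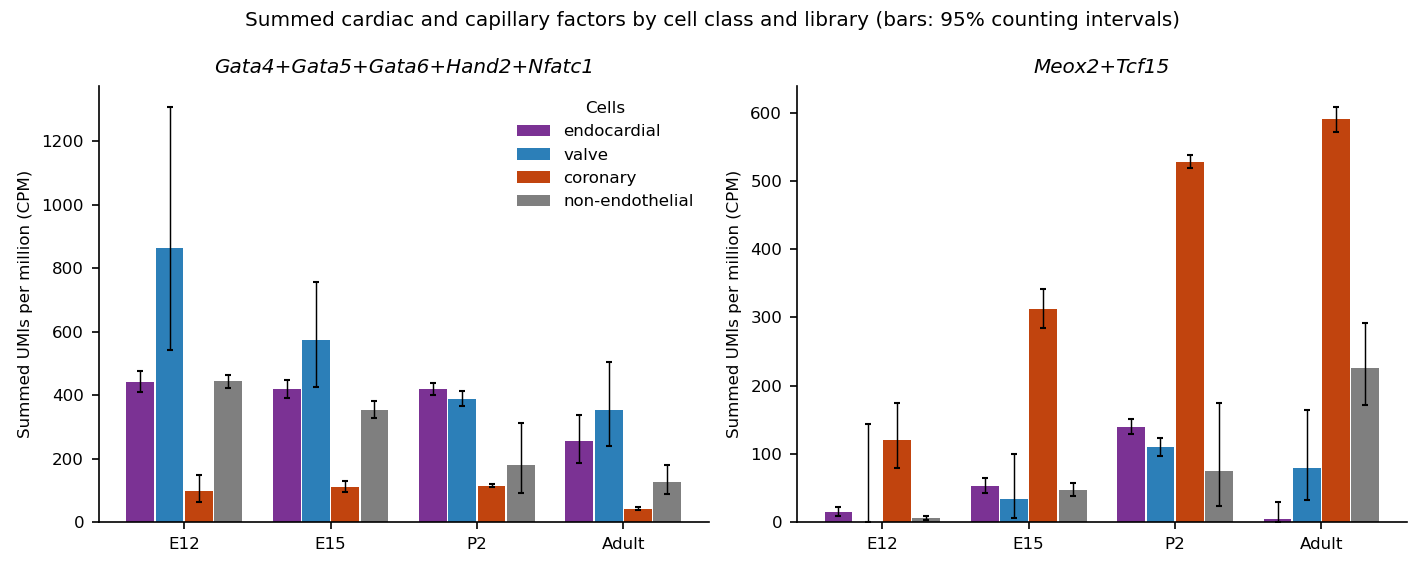
Summed level of the cardiac factors (left) and of Meox2 and Tcf15 (right) in 4 cell classes of each library, in CPM with 95% counting intervals, axes from 0. The cardiac sum at P2 is 418 CPM in endocardial and 389 CPM in valve cells, and the capillary sum is highest in coronary cells of each library.

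Coronary cells were further divided by artery markers (2 or more UMIs of Gja4, Gja5, Hey1, Sema3g and Fbln5 against none). At P2 none of 10 members was 2-fold higher in the 917 artery marker cells, against 5.93% of genes, and none was 2-fold lower, against 2.32%. In the adult none of 8 was higher in the 705 artery marker cells, against 6.45%, and none was lower, against 6% of genes. Meox2 was close to the limit at P2, with 105 CPM in artery marker cells and 206 CPM in the others, a ratio of 0.51 [0.47 to 0.56], and it was 171 against 178 CPM in the adult, a ratio of 0.96 [0.84 to 1.11]. At E15 the 94 artery marker cells had 1 Meox2 UMI, against 63 in the 830 others, a ratio of 0.12 [0.0030 to 0.70]. Gata4 and Gata6 went the other way at P2, with ratios of 1.93 [1.49 to 2.50] and 1.69 [1.47 to 1.95], and Gata6 had 3.53 at E15 [1.68 to 7.04]. Markers of other cell types moved with this division at P2, where 5 of 5 lymphatic, 6 of 8 mesenchymal and 3 of 6 endocardial check genes were 2-fold higher in artery marker cells. Of the endocardial check genes, 1 of 6 was 2-fold lower. In the adult 7 of 7 mesenchymal and 4 of 6 mural (vessel wall) genes were 2-fold higher in these cells. There, 5 of 5 immune, 4 of 4 erythroid, 6 of 6 dividing, 5 of 6 cardiomyocyte and 3 of 6 coronary check genes were 2-fold lower. Without lymphatic marker cells the P2 ratios were 2.30 for Gata4 [1.74 to 3.04], then past 2-fold, 1.98 for Gata6 [1.70 to 2.29] and 0.54 for Meox2 [0.49 to 0.60], and the part of the other markers was not tested. Tcf15 differed less than Meox2 at P2, with a ratio of 0.78 [0.73 to 0.82]. In the adult Tcf15 differed more than Meox2, with a ratio of 0.79 [0.72 to 0.87].

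Dividing coronary cells (2 or more UMIs of Mki67, Top2a, Cenpf, Ccnb1, Ccnb2 and Cdk1 against none) were deeper than the others at P2, with a median of 6636 against 3993.5 UMIs. In the 1043 dividing cells of P2, Gata4 had 7.21 CPM against 18.7 CPM in the others, a ratio of 0.39 [0.28 to 0.52], and Tal1 had a ratio of 0.57 [0.44 to 0.72]. Gata5 (3 UMIs in dividing cells), Gata6, Hand2, Nfatc1, Tcf15 and Foxo1 also had intervals below 1. Their ratios were 0.22, 0.60, 0.74, 0.69, 0.78 and 0.81. The share of all genes that moved with this division was not computed, so a general shift cannot be told apart from one of these members. The part of other cell types in these ratios was not tested. Meox2 and Meox1 were slightly higher in dividing cells, with ratios of 1.13 [1.05 to 1.21] and 1.14 [1.02 to 1.27]. At E15 none of the members with a ratio was separated from 1 in coronary cells. Tcf15 had a ratio of 0.31 [0.090 to 0.86] at E12, from 29 dividing coronary cells. In the 42 dividing coronary cells of the adult, Tcf15 had 0.53 [0.37 to 0.74] and Meox1 1.78 [1.15 to 2.63]. In endocardial cells Meox1 was higher in dividing cells, 4.41-fold at E12 [1.95 to 10.4] and 3.29-fold at E15 [1.21 to 8.27], and at P2 the ratio was 1.29 [0.33 to 3.73].

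**Figure D4:**
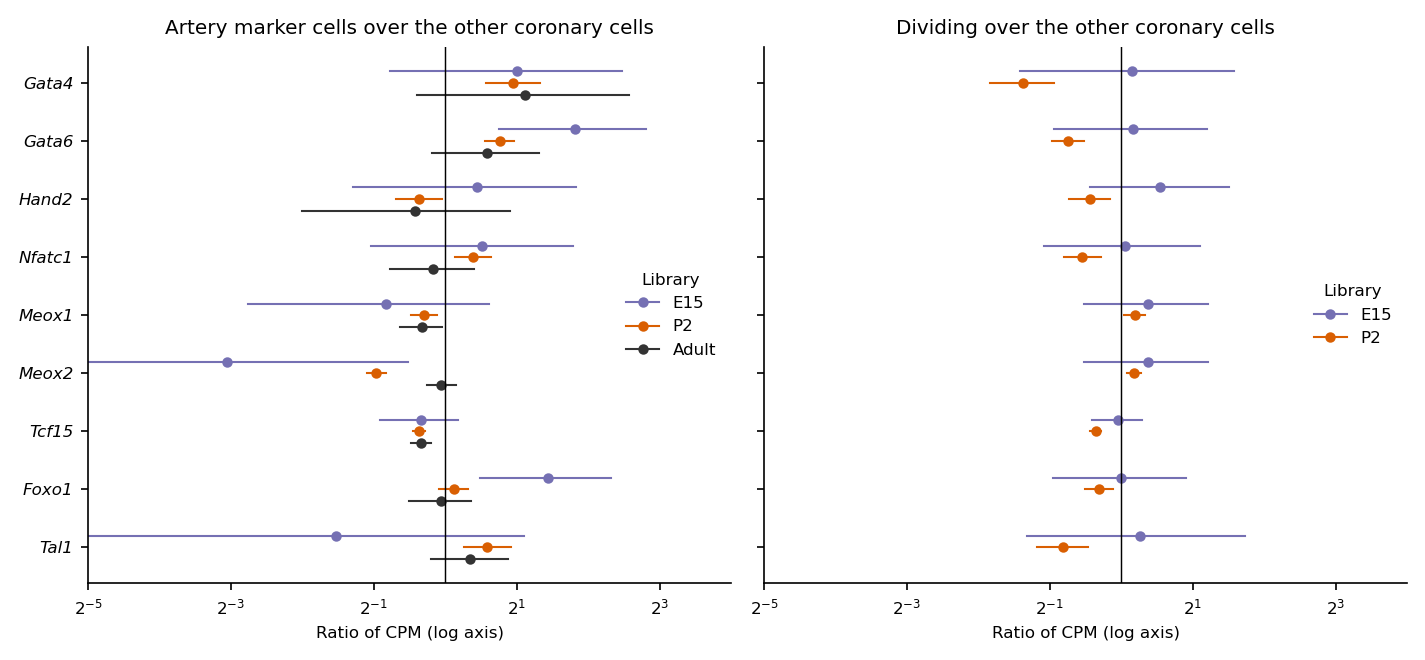
Ratio of the level of 9 factors in artery marker cells (left) and in dividing cells (right) to that in the other coronary cells, on a log axis with 95% counting intervals cut at the edges of the plot. Meox2 lies below 1 in artery marker cells at P2, 0.51, and close to 1 in the adult, 0.96.

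Cardiac and capillary factor UMIs also occurred in the same cells. At P2, 1025 of 4350 coronary cells had UMIs of both sums, 2377 of Meox2 or Tcf15 alone, 426 of cardiac factors alone and 522 of neither. A capillary factor was found in 70.6% of the coronary cells with a cardiac factor UMI and in 82.0% of those without, and in the adult in 49.8% and 56.1%. The embryonic coronary cells had the opposite order, 35% and 17.4% at E12, from 20 cells with a cardiac factor UMI, and 37.0% and 31.6% at E15. Only 7 cells at E12 and 51 at E15 had both. Their median depth was 2522 and 1860 UMIs, against 2067 and 1231.5 UMIs in the class. No interval was computed for these shares, and a difference in order between stages was not tested. In endocardial cells of P2, 255 of 937 had both, and the shares were 34.4% and 31.1%. Cells with both were deeper, with a median of 5693 UMIs in the coronary class of P2, and the part of doublets and free RNA was not tested.

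Other genes of these pathways were taken from lists and compared between endocardial and coronary cells in the same way. The shares of all genes to read these counts against are those given for the members, from E12 to the adult 18.8%, 11.6%, 11.5% and 14.2% for endocardial and 5.02%, 5.96%, 11.4% and 23.3% for coronary cells. Of the fatty acid transport genes, 0 of 3 were 2-fold higher in coronary cells at E12, 3 of 7 at E15, 5 of 10 at P2 and 6 of 9 in the adult, with 1, 0, 2 and 1 higher in endocardial cells. The median log2 ratio of this list, endocardial over coronary, was 0.71, -0.48, -1.07 and -2.77, where that of all genes was 0.08, 0.12, 0.10 and 0.12. The E12 median, from 3 genes, thus went the other way. The sum of the list was higher in coronary cells only in the adult and was nearly equal at P2. It was 2354, 5469, 5582 and 3699 CPM in endocardial and 1499, 3841, 5547 and 7433 CPM in coronary cells. Cd36, a fatty acid receptor, had 413, 1861 and 3474 CPM in coronary cells of the later 3 libraries, and 24.1, 157 and 276 CPM in endocardial cells. Gpihbp1, which carries lipoprotein lipase to the capillary lumen, had 501, 1348 and 2287 CPM against 27.9, 55.9 and 70.4 CPM. Lpl, that lipase, had 30.6, 274 and 550.5 CPM in coronary cells against 22.0, 62.7 and 54.2 CPM. Fabp5, a fatty acid binding protein, went the other way, with 5260.5 CPM in endocardial and 1986 CPM in coronary cells at P2.

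Among the 14 cardiac factor partners, 6 of 7 were 2-fold higher in endocardial cells at E12, 5 of 7 at E15, 4 of 11 at P2 and 0 of 8 in the adult, and 0, 1, 3 and 3 were higher in coronary cells. Mef2c, a MADS-box factor, had 97.5 CPM in endocardial and 318 CPM in coronary cells of the adult. In the same order of classes, Tbx20, a T-box factor of the heart, had 88.8 and 43.1 CPM at E12 and 9.35 and 4.75 CPM at P2. Msx1, a homeobox factor, had 8.57 CPM in endocardial and 36.0 CPM in coronary cells at E15. Of the mesoderm and cushion factors, 6 of 8 were higher in endocardial cells at E12, 5 of 8 at E15, 3 of 9 at P2 and 2 of 6 in the adult, while 0, 1, 4 and 4 were higher in coronary cells. Foxc1, a forkhead factor, had 79.5, 118, 134 and 233 CPM in endocardial and 21.5, 20.4, 24.8 and 19.2 CPM in coronary cells. Wt1, a zinc finger factor, was higher in coronary cells, with 66.6 against 5.36 CPM at E15 and 115 against 16.6 CPM at P2.

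For Nfatc1, the NFAT and calcineurin list had 0 of 6, 2 of 6, 3 of 10 and 4 of 9 genes 2-fold higher in endocardial cells from E12 to the adult, and 0, 0, 1 and 1 in coronary cells. Rcan1, a calcineurin regulator that NFAT factors switch on, was higher in endocardial cells. It had 63.8 against 29.9 CPM at E15, 119 against 59.4 CPM at P2 and 108 against 41.5 CPM in the adult. For Tal1, 3, 4, 3 and 4 of the 11 genes of its complex were higher in endocardial cells, and 0, 0, 1 and 1 in coronary cells. Lmo2, its LIM domain partner, had 134 CPM in coronary and 72.1 CPM in endocardial cells at E12, and 72.0 and 162 CPM in the adult. Tcf4, an E-protein, was higher in coronary cells at P2, 653 against 293 CPM, and in the adult, 764 against 303 CPM. For Foxo1, 3 of 5, 1 of 5, 2 of 9 and 1 of 8 genes of the FOXO list were higher in endocardial cells, and 0, 0, 0 and 2 in coronary cells. Txnip, a gene of this list, had 135 CPM in endocardial and 57.8 CPM in coronary cells at E15, and 504 and 562 CPM in the adult.

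Genes whose pattern was most like that of 4 members were sought over the 16 groups of 4 classes and 4 stages, by Pearson's r of log2(CPM + 10) among 11694 genes. The groups share libraries and depth, so r is a description. They weigh equally although some are small, such as the 12 valve cells of E12 with 25477 UMIs, where a few UMIs can move r. For Meox2 these were Pcdh19 (0.93), Gpihbp1 (0.92) and Rgcc (0.90), and for Tcf15 Pde2a (0.94), Gng11 (0.92) and Tmem88 (0.91). For Gata4 they were Lmo4 (0.92), Fblim1 (0.90) and Gata6 (0.87), and for Nfatc1 Lypd6 (0.94), Galnt1 (0.91) and Hsd17b7 (0.90). Lypd6 and Hsd17b7 had 252 and 398 UMIs over all libraries. Between members, r was 0.84 for Gata4 with Hand2, 0.76 for Meox2 with Tcf15, 0.64 for Meox2 with Meox1 and -0.78 for Gata4 with Tcf15.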

How the data were processed

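Sorted cardiac endothelial cells of 4 stages were measured in 4 single-cell libraries. The authors prepared 10x Genomics v2 3′ libraries and aligned them to mm10 with Cell Ranger 2.2, as the submitters' processing notes name it. The deposited values are UMI counts per gene and barcode, without normalization, and each file belongs to 1 library. The E15, P2 and adult files hold called cells. The E12 file holds all barcodes, and cells were called here as those with at least 0.1 of the 0.99 quantile of the 3000 deepest barcodes, which kept 88.7% of its UMIs.

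Total UMIs in cells were 8122358 (E12), 7079759 (E15), 29645059 (P2) and 7650091 (adult). A cell was placed in the first class that took it, in the order non-endothelial, valve, endocardial, coronary. UMIs were summed per class and library. Intervals are exact at 95% (Poisson for levels, conditional binomial for ratios, binomial for shares) and cover counting error only, and a count of 0 was set to a limit of 3 counts per class. Genes needed 20 UMIs over both classes to be compared, and list medians had 0.5 UMIs added to each class. Doublets were scored with Scrublet at 0.8% per 1000 cells and kept in the values given, with a score limit of 0.15 as an alternative that marked from 2.43% to 9.47% of cells. No test was made, since each stage had 1 library.

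The named genes are the 10 members, up to 4 genes of a list with most UMIs over the 4 libraries, and the 3 most alike genes of Gata4, Nfatc1, Meox2 and Tcf15. Marker genes are named as the lists that define or check the classes. Members and lists were chosen with earlier results of these data known. Alternatives were classes that overlap, stricter or other class markers, the study's limits on UMIs, genes and mitochondrial share, removal of high doublet scores, of cells under 1000 UMIs or of shared barcodes, thinning to 500 UMIs, mean CPM of single cells, median-of-ratios scaling, removal of the top cell and UMI floors of 50 and 1. Removal of lymphatic marker cells was chosen after seeing the data. The calculations were tested on simulated data and used Python 3.11.15, NumPy 2.4.6, SciPy 1.17.1, pandas 2.3.3, Scanpy 1.11.5 and Matplotlib 3.10.9.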

Additional observations from a re-analysis of the deposited data

Results flagged for a closer look

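Nfatc1 and Meox1 were flagged because their endocardial-to-coronary ratio pointed to different classes in different libraries. Nfatc1 was higher in endocardial cells at E12 (1.94), E15 (1.51) and P2 (1.99), while the adult ratio was 0.97. Meox1 was higher in endocardial cells at E12 (1.53) and in coronary cells at E15 (0.34) and P2 (0.092). The difference between libraries was not tested, since each stage had 1 library. The intervals of the E12 and adult Nfatc1 ratios and of the E12 Meox1 ratio included 1.

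The E12 droplets with 100 or fewer UMIs, which no comparison used, held more than 3 UMIs of 9 members. Their levels were 78.1 CPM for Gata4, 30.1 for Gata5, 98.6 for Gata6, 132 for Hand2, 53.4 for Nfatc1, 69.9 for Meox1, 39.7 for Tcf15, 49.3 for Foxo1 and 23.3 for Tal1. The E12 cells held 80.3, 23.8, 139, 133, 45.4, 81.7, 18.96, 47.2 and 17.9 CPM of the same genes. The part of such free RNA in the levels of the cell classes was not tested.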

How the results depend on the processing

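The cardiac sum stayed 2-fold or more higher in endocardial cells, and the capillary sum 2-fold or more higher in coronary cells, in 93 of 95 alternatives, the exceptions being the cardiac sum at E12 with other class markers (1.55) and with cells thinned to 500 UMIs (1.79). With other class markers the cardiac ratio was 5.05 (P2) and 9.08 (adult), and the capillary ratio 0.24 (E12), 0.23 (P2) and 0.065 (adult). With stricter markers the cardiac ratio was 5.70 (P2) and 12.7 (adult), and the capillary ratio 0.25 at E12 and 0.20 at P2. Thinning gave cardiac ratios of 4.96 at E15 and 4.85 at P2, and a capillary ratio of at most 0.24 in the adult, with 0 endocardial UMIs. The cardiac ratio was 4.83 at E15 without high doublet scores, and at P2 3.20 with overlapping classes, 3.98 without lymphatic marker cells and 3.41 with median-of-ratios scaling, which moved the median gene by up to 0.13 (log2).

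Of 438 alternatives for ratios and 650 for stage changes of single members, 979 stayed within the main interval, 105 lay outside it and 4 reversed. A reversal was counted only where the main value was past 2-fold. Other changes of direction, such as that of the E12 Meox1 ratio with other class markers, are not among the 4. A further 58 left 0 UMIs in a class and gave no direction. With other class markers Gata6 had an E12 ratio of 0.74, coronary Meox1 was at 0.57 from E12 to E15 and endocardial Meox1 was at 1.85 from E15 to P2. Thinned Gata5 had an E12 ratio of 0.17 (4 and 1 UMIs).

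Counts of genes past 2-fold were 1800, 1601, 2835 and 3965 from E12 to the adult. A floor of 1 UMI gave 6838, 5216, 6717 and 8713, and a floor of 50 gave 726 at E12 and 882 at E15. Thinning gave 579 at E12 and 807 at E15, other class markers gave 3456 at E12, and stricter markers gave 6785 in the adult. The causes were not tested. No paired analysis was possible because each stage had 1 library, and the 69 adult endocardial and 106 E12 coronary cells set the depth limit.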
